A study of Mus musculus with 6 samples.

Results

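The genes described are the ubiquitin ligases, ubiquitin-conjugating enzymes, ubiquitin proteases and proteasome genes among the genes that differed between Mul1(+/+) and Mul1(-/-) mouse liver. They were chosen by name, as every gene of the deposited table whose symbol starts with Rnf, Trim and a digit, Usp and a digit, Ube2, Fbx, Herc or Psm, without Rnf185 and without pseudogenes. The rule found 41 of the 3542 genes of the table, namely 8 Rnf, 6 Trim, 7 Usp, 4 Ube2, 10 Fbx and 6 Psm genes and 0 Herc genes. The liver mRNA came from 3 Mul1(+/+) and 3 Mul1(-/-) mice, which from 8 weeks of age had all been fed a high-fat diet (HFD) during 16 weeks. Mul1(-/-) mice have Mul1 inactivated in the whole body, so liver cells and all other cells were deficient, and these mice were bred from heterozygous parents. The study used male and female mice, the sex of these 6 animals is not given in the labels, and the cell type is labelled hepatocytes although pieces of liver were sequenced. A library is called a replicate below, and apart from its number the labels do not say which mouse it came from.

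Ubiquitin is a small protein that is joined to other proteins in a relay. An E1 enzyme activates it, an E2 conjugating enzyme (the Ube2 family) carries it, and an E3 ligase chooses the substrate. Many Rnf and Trim proteins are E3 ligases with a RING domain, and Fbx proteins are F-box adaptors that bring substrates to cullin-RING ligases. Usp proteins are proteases that take ubiquitin off again, and the proteasome, whose subunits and helpers carry Psm names, unfolds and degrades many of the tagged proteins. MUL1, the product of the deleted gene, is itself a RING ligase of the outer mitochondrial membrane.

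The proteasome genes of the table went in both directions, so their promoters are shown for a pair that was higher in Mul1(-/-) liver (Psmg4 and Psma7) and a pair that was lower (Psme3 and Psme4). Each sequence is from RefSeq on GRCm38.p6, runs 5′ to 3′ on the strand of its gene, and covers 250 bases before and 50 bases from the annotated start. Capitals mark a match to TGACNNNGC, the core of the antioxidant response element, to GAAANNGAA, the core of the interferon-stimulated response element, or to the E-box CACGTG, each searched on both strands.
Psmg4, chr13:34162714-34163013, plus strand: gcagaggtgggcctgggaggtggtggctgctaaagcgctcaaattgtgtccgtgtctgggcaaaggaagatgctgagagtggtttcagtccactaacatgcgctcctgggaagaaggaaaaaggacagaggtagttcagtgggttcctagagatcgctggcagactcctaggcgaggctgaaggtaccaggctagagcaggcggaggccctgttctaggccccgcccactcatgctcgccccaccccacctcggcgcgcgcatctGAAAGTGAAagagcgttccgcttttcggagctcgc
Psma7, chr2:180042415-180042714, minus strand: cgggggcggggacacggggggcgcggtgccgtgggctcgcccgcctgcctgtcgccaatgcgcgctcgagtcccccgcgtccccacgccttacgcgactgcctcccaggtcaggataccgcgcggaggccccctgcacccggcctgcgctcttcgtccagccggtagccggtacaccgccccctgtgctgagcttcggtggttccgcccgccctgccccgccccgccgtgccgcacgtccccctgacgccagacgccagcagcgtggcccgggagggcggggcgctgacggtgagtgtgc
Psme3, chr11:101315963-101316262, plus strand: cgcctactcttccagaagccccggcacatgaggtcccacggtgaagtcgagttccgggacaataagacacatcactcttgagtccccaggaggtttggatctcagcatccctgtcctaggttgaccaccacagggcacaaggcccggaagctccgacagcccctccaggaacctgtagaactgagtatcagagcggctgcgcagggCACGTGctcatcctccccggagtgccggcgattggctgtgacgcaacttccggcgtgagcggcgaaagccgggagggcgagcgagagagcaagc
Psme4, chr11:30771525-30771824, plus strand: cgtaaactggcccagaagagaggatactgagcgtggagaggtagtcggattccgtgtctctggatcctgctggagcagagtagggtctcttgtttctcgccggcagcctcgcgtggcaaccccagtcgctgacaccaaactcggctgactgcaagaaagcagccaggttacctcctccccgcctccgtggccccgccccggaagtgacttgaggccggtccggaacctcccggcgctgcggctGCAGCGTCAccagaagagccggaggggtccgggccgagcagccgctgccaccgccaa
Psmg4 held a match to GAAANNGAA just after its start, Psme3 held CACGTG before its start, Psme4 held TGACNNNGC across its start, and none of the 3 motifs was found in the Psma7 window. Over all 32851 RefSeq promoters of this length, TGACNNNGC was found in 12.4%, GAAANNGAA in 8.56% and CACGTG in 7.15%. For 30 of the 41 genes 37 promoters were matched, and 3, 5 and 4 of these 37 held the respective motifs in as many genes. GAAANNGAA was found in Psmg4 and Ube2u, which were higher, and in Fbxo40, Rnf146 and Trim25, which were lower. A match is a run of letters and says nothing about binding.

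The table had been selected by the authors on these same 6 libraries. In their own test, all 3542 genes had an adjusted p no higher than 0.05. Each of these genes also changed there by 1 log2 unit or more, up or down. A gene could therefore enter only if it differed, and the tests given here are not independent evidence that it did. Of the 379 protein-coding genes with one of these 7 prefixes in GENCODE M21, 41 (10.8%) were in the table, beside 2849 of 21951 (13.0%) protein-coding genes of any name. Values are normalized read counts, which are reads divided by 1 factor per library, and each library held between 11932164 and 15385822 reads on these genes. Groups were compared with limma on log2(value + 1), and a gene was called where the adjusted p was below 0.01 and the absolute log2 fold change exceeded 1. With 3 samples per group an exact permutation test has a smallest two-sided p of 0.1, so none was used for single genes. The targeted gene Mul1 measured 3172, 3232 and 3423 in Mul1(+/+) and 1037, 965 and 1753 in Mul1(-/-) replicates 1 to 3. Its groups did not overlap, with a log2 fold change of -1.44 (standard error, SE, 0.40, limma adjusted p = 0.0126), and it was not called. The Mul1(-/-) mean was 38.2% of the Mul1(+/+) mean, so reads on Mul1 remained in Mul1(-/-) liver.

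Of the 41 genes, 29 were lower and 12 were higher in Mul1(-/-) HFD-liver, a share of 70.7% lower, beside 51.6% of the other 2808 protein-coding genes and 43.2% of all genes of the table. The median log2 fold change was -1.20. Rnf10, Trim32, Usp9x, Fbxo38 and Fbxo40 passed the threshold as lower, which is 5 of 41 beside 7.43% of all genes tested, and Psmg4 passed as higher, which is 1 of 41 beside 16.7%. With the libraries rescaled by the median ratio of the table's genes 1 was called as higher, beside 6.66% of the table, and 16 as lower, beside 29.1%. With rescaling by the table total these were 1, beside 17.5%, and 14, beside 20.4%. The median ratio rests on most genes being unchanged, which cannot hold among genes selected for change. The groups did not overlap in 38 genes, beside 90.3% of the table, the exceptions being Rnf19b, Trim56 and Fbxo5. At an adjusted p limit of 0.05 in limma, 39 passed, beside 95.4% of the table, all but Fbxl4 and Trim25, whose log2 fold changes of 0.97 and -0.99 fell short of the size limit.

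The calls depended on single libraries. Without Mul1(+/+) replicate 1, 2 or 3, or without Mul1(-/-) replicate 2, 0 of the 41 genes were called by limma in either direction, and 24, 35, 28 and 29 of them then had an unadjusted p under 0.05. Those fits called only 25, 13, 46 and 10 genes of the whole table. How many of all genes had an unadjusted p under 0.05 in those fits was not counted. With no library left out, 41 of the 41 genes and 3416 of all 3542 genes had one. Without Mul1(-/-) replicate 1, Psmg4 and Trim32 stayed past the threshold as 1 higher and 1 lower gene, beside 12.4% and 5.39% of the table. Without Mul1(-/-) replicate 3, 8 were called as higher and 23 as lower, beside 45% and 30.4% of the table. The direction of all 41 genes stayed the same in each of these fits, which the selection of the table on the same libraries made likely beforehand.

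**Figure D1:**
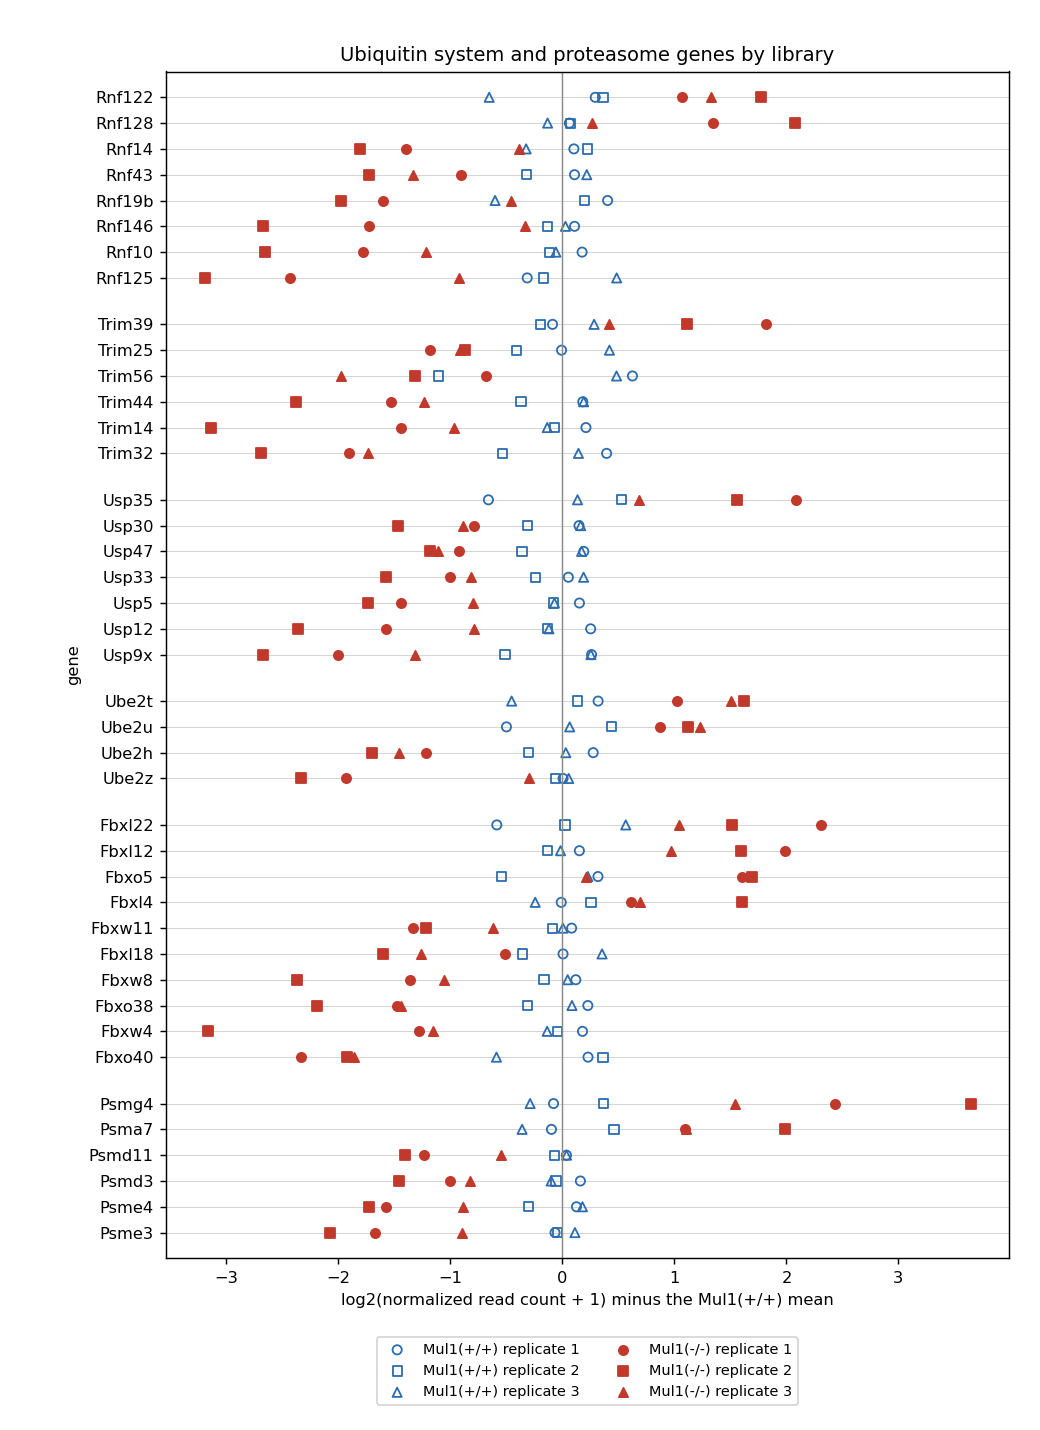
Each point is 1 library and each line 1 gene, with the log2 normalized read count minus the Mul1(+/+) mean on the horizontal axis and the genes grouped by prefix. Filled red Mul1(-/-) points lie left of the open blue Mul1(+/+) points for most genes (29 lower, 12 higher), with Mul1(-/-) replicate 2 (squares) farthest from 0 in 25 of the 29 lower genes.

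The Mul1(-/-) libraries did not move equally. Among the 29 lower genes the largest difference from the Mul1(+/+) mean was in Mul1(-/-) replicate 2 for 25, in replicate 1 for 3 and in replicate 3 for 1, and the smallest was in replicate 3 for 22. Over all 1530 lower genes of the table, replicate 2 had the largest difference in 73.3% and replicate 3 the smallest in 61.5%. Among the 12 higher genes replicate 2 had the largest difference in 7 and replicate 1 in 4. The median of the 29 lower genes lay at -1.44, -1.92 and -0.93 in Mul1(-/-) replicates 1, 2 and 3, as log2 differences from the Mul1(+/+) mean.

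The proteasome is built of a barrel-shaped core particle, regulatory particles that recognise and unfold substrates, and activators that open the core. In the table, Psmg4 and Psma7 were higher and the 4 genes of regulatory and activator subunits were lower in Mul1(-/-) liver. Psmg4 and Psma7 also have the shortest transcripts of the Psm genes, with 555 and 914 nucleotides, beside 2148 to 6491 for the 4 lower genes. The parts of length and of place in the proteasome in this split were not tested. Of the genes listed for each part, the table held 1 of 8 for the alpha ring of the core, 0 of 7 for the beta ring, 0 of 3 immunoproteasome subunits, 0 of 6 ATPase subunits and 2 of 11 other subunits of the regulatory particle, 2 of 5 activators and inhibitors, and 1 of 7 assembly chaperones.

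Psmg4 (ENSMUSG00000071451) encodes a chaperone that helps assemble the core and lies on chromosome 13 from 34162964 to 34178173 on the plus strand of GRCm38 (GENCODE M21). Its normalized read count was 258, 352 and 223 in Mul1(+/+) and 1476, 3418 and 796 in Mul1(-/-) replicates 1 to 3. All Mul1(-/-) libraries lay above all Mul1(+/+) libraries, and replicate 2 was the highest in both groups. The mean rose from 278 ± 67.0 to 1897 ± 1361 (SD, n = 3), to 683% of the Mul1(+/+) mean, a log2 fold change of 2.54 (SE 0.54, limma adjusted p = 0.00768), the largest of the 41 genes. It lay between 1.99 and 3.04 with single libraries left out.

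Psma7, an alpha subunit of the core particle, measured 4637, 6828 and 3867 in Mul1(+/+) and 10615, 19667 and 10653 in Mul1(-/-) replicates 1 to 3. The groups did not overlap, and replicate 2 was again the highest in both. The log2 fold change was 1.39 (SE 0.43, limma adjusted p = 0.0167), which missed the threshold. Per kilobase of transcript, Psma7 had the highest level of the 6 Psm genes, a mean of 5592 in Mul1(+/+) and 14929 in Mul1(-/-) liver, whereas the other genes lay between 500.5 and 2700.1 in Mul1(+/+).

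Psmd3 and Psmd11, both subunits of the lid of the regulatory particle, were lower by similar amounts. Psmd3 measured 6459, 5551 and 5390 in Mul1(+/+) and 2890, 2104 and 3270 in Mul1(-/-) replicates 1 to 3. Psmd11 measured 5588, 5188 and 5588 in Mul1(+/+) and 2317, 2061 and 3729 in Mul1(-/-) replicates 1 to 3. In both genes the highest Mul1(-/-) library, replicate 3, stayed below the lowest Mul1(+/+) library. The log2 fold changes were -1.09 and -1.06, with limma adjusted p values of 0.0232 and 0.0279.

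The activators had more negative log2 fold changes. Psme3, a nuclear activator of the core, measured 2910, 2955 and 3292 in Mul1(+/+) and 954, 723 and 1632 in Mul1(-/-) replicates 1 to 3. Psme4, which encodes another activator known from chromatin and male germ cells, measured 5193, 3859 and 5389 in Mul1(+/+) and 1596, 1435 and 2574 in Mul1(-/-) replicates 1 to 3. Neither gene had overlapping groups, and Mul1(-/-) replicate 3 was the closest to Mul1(+/+) in both. The Mul1(-/-) means were 36.1% and 38.8% of those in Mul1(+/+), with log2 fold changes of -1.55 (limma adjusted p = 0.0120) and -1.40 (limma adjusted p = 0.0142).

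**Figure D2:**
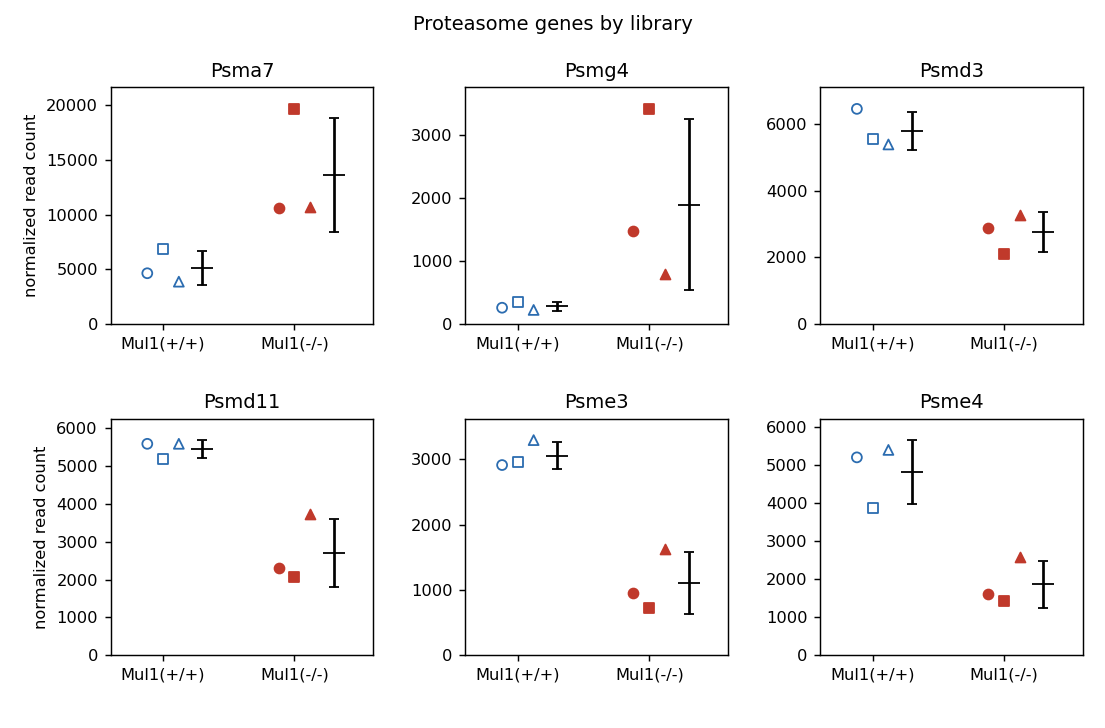
Normalized read counts (vertical axes, from 0) of the 6 Psm genes, with a point per library (circle, square and triangle for replicates 1, 2 and 3) and a bar for the mean and SD of the 3 libraries. Psma7 and Psmg4 were higher and Psmd3, Psmd11, Psme3 and Psme4 lower in all 3 Mul1(-/-) libraries, with Psmg4 from 796 to 3418 and Psma7 from 10615 to 19667 in Mul1(-/-).

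Of the 8 Rnf genes, 6 were lower and 2 were higher, with a median log2 fold change of -1.34, and 1 was called. Rnf10 (ENSMUSG00000041740) encodes a RING ligase that modifies proteins of the small ribosomal subunit, and lies on chromosome 5 from 115241412 to 115272898. It measured 10016, 8185 and 8515 in Mul1(+/+) and 2576, 1405 and 3799 in Mul1(-/-) replicates 1 to 3. The Mul1(-/-) libraries were all far below the Mul1(+/+) libraries, which lay close together. The mean fell from 8906 ± 976 to 2593 ± 1198 (SD, n = 3), to 29.1%, a log2 fold change of -1.89 (SE 0.45, limma adjusted p = 0.00910).

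Rnf125, a ligase known to act on the antiviral RNA sensor RIG-I, had the most negative log2 fold change of the 41 genes, -2.18, but was not called (limma adjusted p = 0.0111). It measured 3279, 3628 and 5703 in Mul1(+/+) and 755, 445 and 2145 in Mul1(-/-) replicates 1 to 3. The groups did not overlap, but the Mul1(-/-) libraries spread widely, and without Mul1(-/-) replicate 3 the log2 fold change was -2.81. Rnf128, a membrane ligase known for restraining T cell activation, was the more abundant of the higher Rnf genes, with a mean level per kilobase of 5691 in Mul1(-/-) against 16.2 for Rnf122. It measured 6153, 6195 and 5377 in Mul1(+/+) and 14961, 24925 and 7063 in Mul1(-/-) replicates 1 to 3. The Mul1(+/+) libraries were alike, and Mul1(-/-) replicate 3 was only slightly above them, with a log2 fold change of 1.23 (limma adjusted p = 0.0343).

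Rnf146, which recognises poly-ADP-ribosylated proteins such as axin, had a log2 fold change of -1.58. Rnf43, which removes Wnt receptors from the cell surface, had -1.32. Rnf14 and Rnf19b, ligases of the RING-between-RING type, had -1.20 and -1.35. Rnf19b overlapped between groups, since its Mul1(-/-) replicate 3 at 2122 exceeded its Mul1(+/+) replicate 3 at 1921. Rnf122, a ligase of the endoplasmic reticulum and the gene of the ERAD and sterol list (1 of 16) that was in the table, was higher with 1.39, from low counts of 13.1 to 27.5 in Mul1(+/+) and 45.3 to 74.7 in Mul1(-/-). None of these 5 genes was called.

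Of the 6 Trim genes, 5 were lower and Trim39 was higher, with a median log2 fold change of -1.52. Trim32 (ENSMUSG00000051675), a ligase in which mutations cause a limb-girdle muscular dystrophy, lies on chromosome 4 from 65604986 to 65616238. It measured 664, 348 and 558 in Mul1(+/+) and 134, 77.2 and 151 in Mul1(-/-) replicates 1 to 3. Replicate 2 was the lowest in both groups, and the groups were well apart. The mean fell from 523 ± 161 to 121 ± 38.8 (SD, n = 3), to 23.1%, a log2 fold change of -2.11 (SE 0.44, limma adjusted p = 0.00732).

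Trim14, an adaptor of antiviral signalling without a RING domain, and Trim25, a ligase of the RIG-I pathway, were the 2 of 21 interferon-inducible genes with these prefixes that were in the table, and both were lower. Trim14 measured 1215, 999 and 956 in Mul1(+/+) and 387, 119 and 538 in Mul1(-/-) replicates 1 to 3. Trim25 measured 4834, 3658 and 6502 in Mul1(+/+) and 2138, 2651 and 2574 in Mul1(-/-) replicates 1 to 3. Their groups did not overlap, and the log2 fold changes were -1.85 and -0.99 (limma adjusted p = 0.0150 and 0.0341). Trim44, which carries a ubiquitin-binding zinc finger in place of a RING, had a log2 fold change of -1.71 (limma adjusted p = 0.0106). Trim56, a ligase of antiviral signalling, had -1.32 with overlapping groups, Mul1(+/+) replicate 2 at 504 lying below Mul1(-/-) replicate 1 at 677. Trim39 had a log2 fold change of 1.11, with 327 to 455 in Mul1(+/+) and 498 to 1318 in Mul1(-/-).

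Of the 7 Usp genes, 6 were lower and Usp35 was higher, with a median log2 fold change of -1.13. Usp9x (ENSMUSG00000031010), a large X-linked ubiquitin protease, lies on chromosome X from 13071498 to 13173328. It measured 4132, 2418 and 4116 in Mul1(+/+) and 859, 539 and 1381 in Mul1(-/-) replicates 1 to 3. All Mul1(-/-) libraries were below all Mul1(+/+) libraries, and replicate 2 was the lowest of both groups. The mean fell from 3555 ± 985 to 926 ± 425 (SD, n = 3), to 26.1%, a log2 fold change of -2.0 (SE 0.47, limma adjusted p = 0.00857).

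Usp30 sits on the outer mitochondrial membrane, where MUL1 also resides, and removes ubiquitin that marks mitochondria for mitophagy. It measured 991, 722 and 1001 in Mul1(+/+) and 517, 323 and 484 in Mul1(-/-) replicates 1 to 3. The groups did not overlap, and the log2 fold change was -1.05 (limma adjusted p = 0.0290). Usp5, which takes apart free ubiquitin chains, had a log2 fold change of -1.33, and Usp12, Usp33 and Usp47 had -1.58, -1.13 and -1.07. Usp35 had the lowest level per kilobase of the Usp genes in Mul1(+/+), 11.1, with normalized read counts of 27.8 to 64.7 in Mul1(+/+) and 72.0 to 193 in Mul1(-/-), and a log2 fold change of 1.44 (limma adjusted p = 0.0217).

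The 4 Ube2 genes were split evenly, with 2 higher, 2 lower and none called, beside 24.1% of all genes called in either direction. Their median log2 fold change was -0.19. Ube2h, a conjugating enzyme of the CTLH ligase complex that is abundant in red cell precursors, measured 6448, 4318 and 5442 in Mul1(+/+) and 2291, 1635 and 1940 in Mul1(-/-) replicates 1 to 3. Its groups were far apart, with a log2 fold change of -1.46 (limma adjusted p = 0.0113). Ube2z, which takes its ubiquitin from the E1 enzyme UBA6, measured 3247, 3104 and 3363 in Mul1(+/+) and 845, 642 and 2638 in Mul1(-/-) replicates 1 to 3. Mul1(-/-) replicate 3 lay near the Mul1(+/+) libraries, and the log2 fold change of -1.52 (limma adjusted p = 0.0230) became -2.13 without it. The higher genes had few reads. Ube2t, the conjugating enzyme of the Fanconi anaemia pathway, had 11.4 to 20.2 in Mul1(+/+) and 33.6 to 51.4 in Mul1(-/-), and Ube2u had 61.5 to 119 and 161 to 206.

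Of the 10 Fbx genes, 6 were lower and 4 were higher, with a median log2 fold change of -1.09. Fbxo38 (ENSMUSG00000042211), an adaptor known to direct the turnover of PD-1 in T cells, lies on chromosome 18 from 62504155 to 62548695. It measured 1447, 997 and 1312 in Mul1(+/+) and 444, 269 and 455 in Mul1(-/-) replicates 1 to 3. The groups did not overlap, and replicate 2 was the lowest of each. The log2 fold change was -1.70 (SE 0.41, limma adjusted p = 0.00910), with means of 1252 ± 231 and 390 ± 104 (SD, n = 3). Fbxo40 (ENSMUSG00000047746), known as a muscle adaptor for the insulin receptor substrate IRS1, lies on chromosome 16 from 36963460 to 36990467. It measured 74.2, 81.5 and 41.7 in Mul1(+/+) and 11.7, 15.9 and 16.7 in Mul1(-/-) replicates 1 to 3. Counts were low throughout and did not overlap, and the log2 fold change was -2.04 (SE 0.42, limma adjusted p = 0.00701), with means of 65.8 ± 21.2 and 14.8 ± 2.69 (SD, n = 3).

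Fbxw8, the F-box partner of the cullin Cul7, had the highest level per kilobase of the Fbx genes in Mul1(+/+) liver, 526. It measured 2846, 2337 and 2706 in Mul1(+/+) and 1018, 507 and 1259 in Mul1(-/-) replicates 1 to 3, with a log2 fold change of -1.60 (limma adjusted p = 0.0125). Fbxw4 had a log2 fold change of -1.87 and its Mul1(-/-) replicate 2, at 115, lay well below replicates 1 and 3, at 428 and 465. Fbxw11, a receptor subunit that binds phosphorylated beta-catenin and inhibitors of NF-kappaB, had -1.06, and Fbxl18 had -1.13.

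Among the higher Fbx genes, Fbxl4, a mitochondrial protein known to restrain mitophagy, measured 748, 899 and 636 in Mul1(+/+) and 1150, 2295 and 1219 in Mul1(-/-) replicates 1 to 3. The groups did not overlap, and the log2 fold change was 0.97 (limma adjusted p = 0.0466). Fbxl12 measured 126 to 153 in Mul1(+/+) and 271 to 551 in Mul1(-/-), a log2 fold change of 1.52 (limma adjusted p = 0.0117). Fbxl22 had the largest log2 fold change of this family, 1.62, on 10.1 to 23.7 in Mul1(+/+) and 33.4 to 81.8 in Mul1(-/-). Fbxo5, an inhibitor of the anaphase-promoting complex, had 1.17 with overlapping groups, since Mul1(-/-) replicate 3 at 48.3 lay within the Mul1(+/+) range of 28.3 to 52.3.

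**Figure D3:**
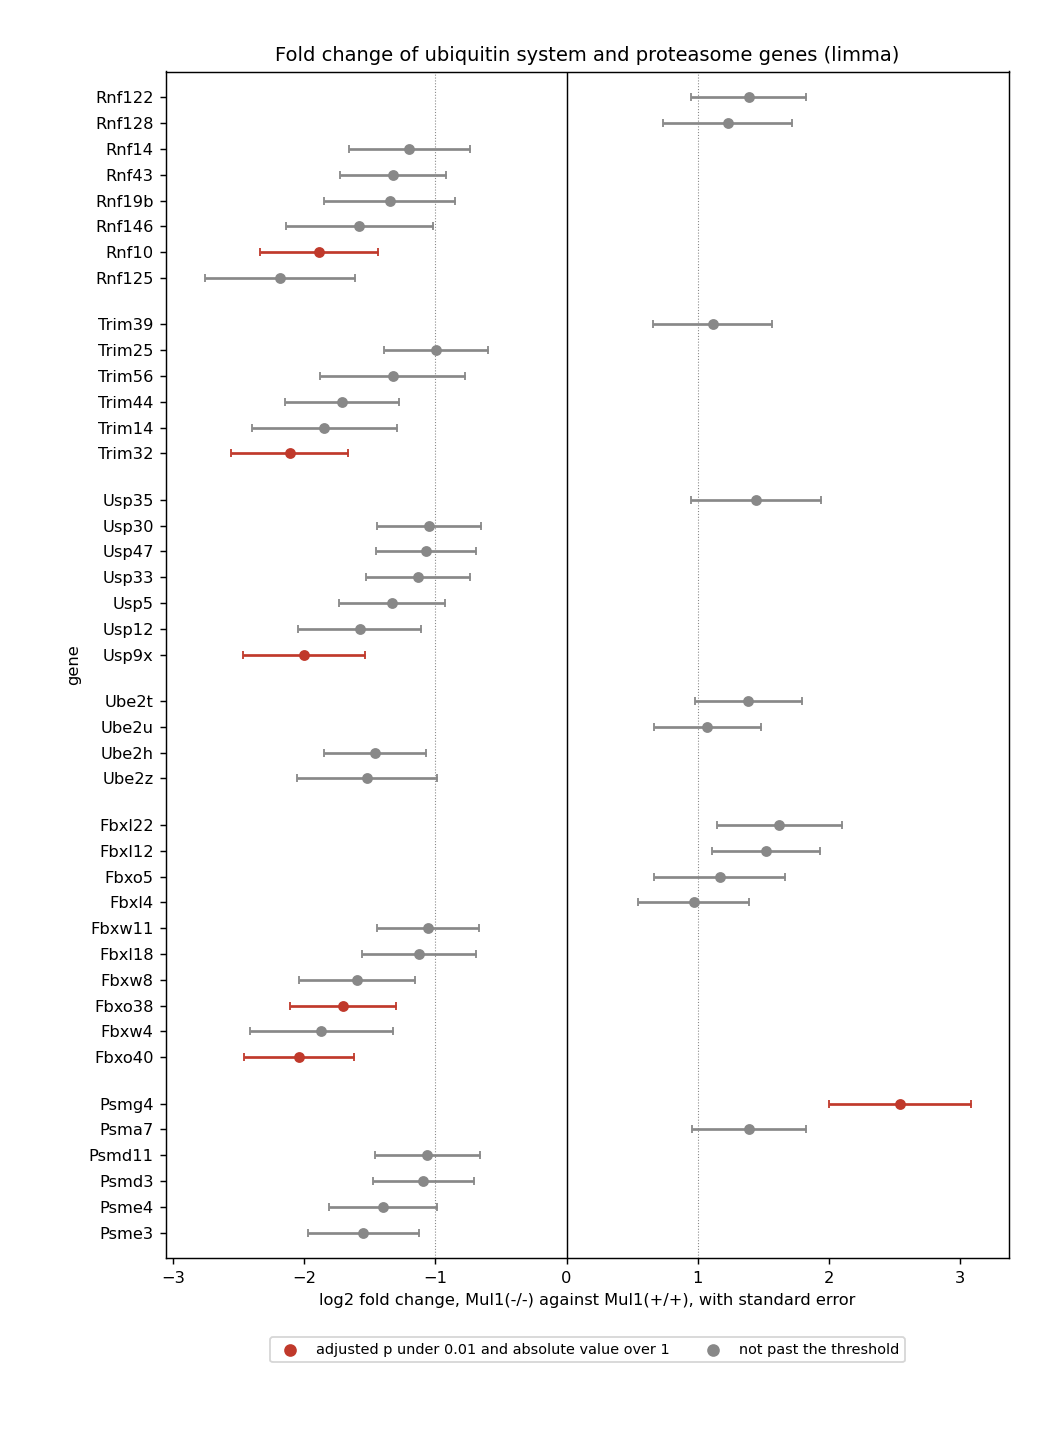
Log2 fold change of Mul1(-/-) against Mul1(+/+) from limma (horizontal axis) with its standard error for each of the 41 genes, grouped by prefix. The 6 red genes passed the threshold, from Trim32 at -2.11 to Psmg4 at 2.54, and Rnf125 at -2.18 lies farthest left without passing.

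The genes of the table were also compared by transcript length, taken as the longest principal transcript in GENCODE M21. The median length was 4183 nucleotides for the 29 lower and 2648 for the 12 higher genes. Psmg4, the 1 gene called as higher, has a transcript of 555 nucleotides. The genes called as lower, Rnf10, Trim32, Fbxo38, Fbxo40 and Usp9x, have 3112, 3194, 4254, 5137 and 11887. Spearman's rho of length with the log2 fold change was -0.26 over the 41 genes and -0.44 over the 2849 protein-coding genes of the table, given as a description, since the genes share the same 6 libraries. Among transcripts over 3000 nucleotides, 21 of the 26 genes described here were lower (80.8%), beside 74.1% of 1419 other protein-coding genes. Among those of 1500 to 3000 nucleotides, 6 of 10 were lower, beside 44.0% of 785, and among the shortest, 2 of 5, beside 8.94% of 604. The part of length in the split was not tested.

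**Figure D4:**
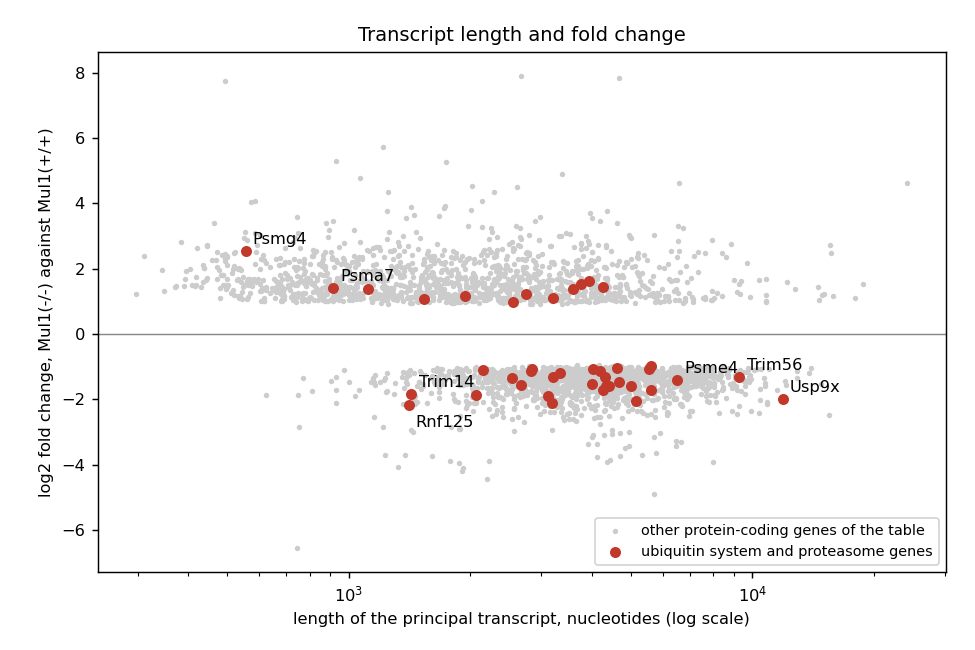
Log2 fold change (vertical axis) against the length of the principal transcript in nucleotides (horizontal log axis), with the 41 ubiquitin system and proteasome genes in red and the other protein-coding genes of the table in grey. No gene lies near 0 because the table holds selected genes, and longer transcripts were more often lower (rho of -0.26 in red and -0.44 over all 2849 genes).

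The remaining ubiquitin pathway genes, from a list of genes without these prefixes, gave 37 genes in the table, Mul1 among them, and Rnf185 was not analysed here. Of these, 17 were higher and 20 lower, and limma called 6 as higher and 1 as lower, beside 16.7% and 7.43% of all genes tested. With the libraries rescaled by the median ratio limma called 1 and 12 (6.66% and 29.1% of all genes), and by the table total 3 and 6 (17.5% and 20.4%). Without Mul1(+/+) replicate 1 or 3 only Ubd was called among the 37 genes, where 0.536% and 0.875% of all genes were called as higher. Without Mul1(-/-) replicate 1 only Ubd, Cops9 and Stambpl1 were called, beside 12.4% of all genes as higher. Without Mul1(+/+) replicate 2 or Mul1(-/-) replicate 2 limma called 0, beside 13 and 10 of all genes. In these fits 32 and 25 of the 37 genes had an unadjusted p under 0.05, and the share of all genes was not counted. With no library left out, 33 of the 37 had one, beside 3416 of all 3542 genes. Without Mul1(-/-) replicate 3, 13 were called as higher and 14 as lower, beside 45% and 30.4% of all genes. At the top of the relay, the ubiquitin precursor gene Rps27a, whose product also carries a ribosomal protein, measured 4899, 7237 and 5160 in Mul1(+/+) and 16282, 22930 and 17263 in Mul1(-/-) replicates 1 to 3. All Mul1(-/-) libraries were higher and the log2 fold change was 1.71 (limma adjusted p = 0.00833). Uba1, the main E1 enzyme, measured 11239, 6895 and 11062 in Mul1(+/+) and 3457, 3293 and 4631 in Mul1(-/-), a log2 fold change of -1.34 (limma adjusted p = 0.0150).

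Ligases outside the prefixes gave mostly lower values. Of 5 ligases of the HECT and RBR list 4 were lower, among them Nedd4, Arel1 and Ube3b with log2 fold changes of -1.44, -1.41 and -1.20, and Ube3a was higher with 1.14 but overlapping groups (limma adjusted p = 0.104). Among other RING ligases, Dtx3 had the largest value, 2.0, and the signalling ligase Traf6 had -1.43. Of the cullin scaffolds and adaptors, Cul7, the partner of Fbxw8, had -1.17 and the substrate adaptor Spop -1.49, whereas the elongin subunits Elob and Eloc had 1.17 and 1.09. None of these passed the threshold. Of the COP9 signalosome, which takes the ubiquitin-like protein NEDD8 off cullins, Cops9 rose with 2.01 (limma adjusted p = 0.00816) and Cops8 had -1.16.

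Of 32 listed deubiquitinases outside the Usp family 4 were in the table, 3 higher and 1 lower. Of these, 2 were called as higher, beside 16.7% of all genes tested. Of the 7 Usp genes 6 were lower, and 1 was called as lower, beside 7.43% of all genes tested. The difference between these families was not tested. Josd2 measured 583, 1034 and 731 in Mul1(+/+) and 5807, 5278 and 1574 in Mul1(-/-) replicates 1 to 3, a log2 fold change of 2.26 (limma adjusted p = 0.00933). Stambpl1, a protease for K63-linked chains, had 1.72 (limma adjusted p = 0.00965), Mindy3 had 1.04 (limma adjusted p = 0.0537), and Otud3 had -1.78. All 5 genes of the group of Vcp, the ATPase that extracts ubiquitinated proteins from membranes and complexes, and of ubiquitin shuttle factors were lower. Its cofactor Nploc4 measured 4249, 3066 and 4083 in Mul1(+/+) and 1017, 692 and 1460 in Mul1(-/-) and fell with a log2 fold change of -1.90 (limma adjusted p = 0.00797). Vcp itself had -1.27 and Ddi2, a protease that activates the proteasome transcription factor Nfe2l1, had -1.42. Nfe2l1 had -1.48 (limma adjusted p = 0.0102), with 10180, 7954 and 9127 in Mul1(+/+) and 3443, 2940 and 3396 in Mul1(-/-), and the small proteasome subunit Sem1 had 1.14.

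The ubiquitin-like modifiers Ubd, Isg15 and Fau were higher. Ubd, also called FAT10, targets proteins to the proteasome directly and measured 123, 120 and 9.80 in Mul1(+/+) and 1175, 3236 and 2502 in Mul1(-/-) replicates 1 to 3. Its Mul1(+/+) replicate 3 was far below replicates 1 and 2, yet all Mul1(-/-) libraries were above all Mul1(+/+) libraries, with a log2 fold change of 5.28 (SE 0.86, limma adjusted p = 0.00518). Isg15, the interferon-induced modifier, rose with 1.76 (limma adjusted p = 0.00916). Fau had 1.5 and was not called.

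**Figure D5:**
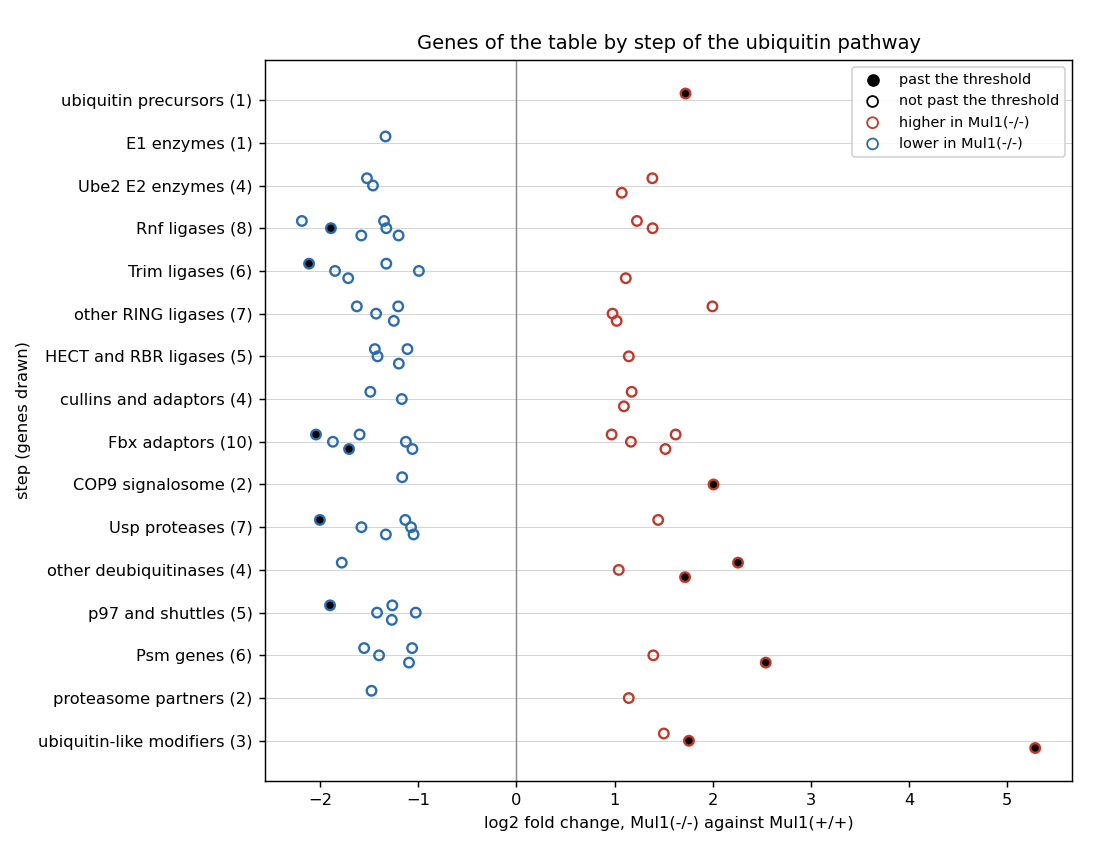
Log2 fold change (horizontal axis) of genes of the table by step of the ubiquitin pathway, from ubiquitin precursors at the top to ubiquitin-like modifiers at the bottom, with the number of genes drawn in brackets and filled points past the threshold. Ubd at 5.28 lies farthest right, and ubiquitin precursors and ubiquitin-like modifiers lie right of 0 while E1 enzymes, p97 (Vcp) and shuttle factors lie left of it.

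Liver tissue holds several cell types, and in such bulk samples fewer cells of a type and less RNA per cell cannot be told apart. Of 10 hepatocyte markers 3 were in the table (Hnf4a, Tat and Apob), all lower, with a summed normalized read count of 181860 to 290800 in Mul1(+/+) and 105170 to 106050 in Mul1(-/-). Apob made up most of these sums, and Hnf4a alone spread more, at 11108, 5070 and 18325 in Mul1(-/-) replicates 1 to 3. Of 7 cholangiocyte markers 4 were in the table (Krt7, Krt19, Epcam and Spp1), all higher, with sums of 1292 to 1891 and 4878 to 5100. Spp1 made up most of these sums, at 3336, 4304 and 4613 in Mul1(-/-) replicates 1 to 3, where Krt19 measured 1151, 176 and 147. Clec4g and Pecam1 (2 of 7 endothelial markers) were lower, from 3352 to 3910 against 1184 to 2140. Dcn and Col3a1 (2 of 8 stellate cell markers) were higher, from 4314 to 5241 against 8482 to 28580, and so were Cd3d and Cd8a (2 of 9 T and NK cell markers), from 13.9 to 60.2 against 89.1 to 202. Alas2, 1 of 6 erythroid markers, was lower, with 5052 to 7563 against 803 to 4287. Of the 8 macrophage, 6 B cell and 5 neutrophil markers 0 were in the table. Since the table holds selected genes only, markers outside it could not be used to check the labelled cell type, and the part of cell makeup in the values above was not tested.

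Reads from overlapping genes may also have been counted together, since the sources used here do not say whether counting used strand. In GENCODE M21, 9 of the 41 genes share exon bases with a gene on the opposite strand, 8 of them at least 300 bases. Rnf146 shares 3129 bases with Echdc1, Fbxl12 shares 1890 with Ubl5, Fbxw8 shares 1845 with Gm9754, Usp33 shares 1478 with Gm43857 and Trim14 shares 1356 with Nans. Fbxw4 with Gm17018, Usp30 with Alkbh2 and Fbxl22 with Herc1 share 676, 329 and 317 bases. Gm43857 was itself in the table and went the other way from Usp33, with a log2 fold change of 2.24 (limma adjusted p = 0.00899) on at most 87.7 normalized reads. None of the 6 called genes is among the 9.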

How the data were processed

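Liver mRNA libraries of 3 Mul1(+/+) and 3 Mul1(-/-) mice on HFD were prepared, sequenced and analysed for the authors by GENEWIZ, and the authors' comparison was a Wald test in DESeq2. The aligner, counting tool, genome build, annotation and use of strand are not given in the sources used here. The authors deposited 1 table of 3542 genes with normalized read counts per library, together with log2 fold changes and raw and adjusted p-values from their own test, which were used only to find the limits of the selection. From the low values, 1 read was worth 0.817 to 1.46 depending on the library, and 100% of the values below 10000 gave whole reads to within 0.1 reads. These genes hold only part of the reads of a library, so no sequencing depth is given.

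The normalized counts were analysed as log2(value + 1), without a filter, with limma 3.58.1 in R 4.3.3 and genotype as the only term. On this scale the change of a gene with few reads is understated. The Benjamini-Hochberg adjustment ran over all 3542 genes, and the threshold followed the study's methods. The script was tested on simulated data. The p-values measure the spread between these samples, which nothing in the labels ties to named animals. Gene positions, lengths and exon overlaps were taken from GENCODE M21 on GRCm38, which matched 3529 identifiers, and promoters from RefSeq on GRCm38.p6. Python 3.11.15 with pandas 2.3.3 was used for the rest.

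The members, gene lists, markers and motifs were chosen with earlier results of these data known. In each prefix group, named genes were the up to 4 highest and 4 lowest log2 fold changes without overlap and with a library of at least 50, the most abundant member, the overlapping members and those in the lists of proteasome parts, interferon-inducible and ERAD and sterol genes, and from each other pathway list at most the 4 largest changes. Fbxl18 fell outside this rule and was named after its value was seen. Alternatives were pseudocounts of 0.5 and 5, a minimum mean of 10, rescaling of the libraries by the median ratio or the table total, limma-trend, an adjusted p limit of 0.05, a block for the replicate number, and fits that leave out single libraries. Some genes that enter the counts of pathway genes are not reported one by one or drawn here.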

Additional observations from a re-analysis of the deposited data

How the results depend on the processing

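The 41 genes kept their direction in each of the 14 settings, and 0 of the 72 genes followed reversed. The number called as higher, 1, became 2 with a pseudocount of 5, beside 23.5% of the table, and 3 with limma-trend, beside 27.2%. At an adjusted p limit of 0.05 it was 11, where 95.4% of the table passed in either direction. With single libraries left out it was 0 to 8, beside 0.254% to 45% of the table. The number called as lower, 5, became 3 and 12 with pseudocounts of 0.5 and 5, beside 4.86% and 16% of the table. It became 18 with limma-trend, beside 25.6%, 16 rescaled by the median ratio, beside 29.1%, and 14 rescaled by the table total, beside 20.4%. At an adjusted p limit of 0.05 it was 28, again where 95.4% of the table passed in either direction. With single libraries left out it was 0 to 23, beside 0.0282% to 30.4% of the table. Over the whole table limma called 854 genes, between 639 and 1869 with other pseudocounts, scalings and limma-trend, 10 without Mul1(-/-) replicate 2 and 2673 without Mul1(-/-) replicate 3. Called as higher and lower, the whole table had 591 and 263 genes, 236 and 1031 by the median ratio and 619 and 724 by the table total. Rescaling moved the median log2 fold change of all genes by -0.66 (median ratio) and -0.30 (table total), and the members moved with it. By the median ratio the median was -1.99 for Rnf, -2.18 for Trim, -1.79 for Usp, -0.85 for Ube2, -1.75 for Fbx and -1.74 for Psm genes, and by the table total -0.49 for Ube2, -1.39 for Fbx and -1.38 for Psm genes. Mul1 passed the threshold at -1.44 with a pseudocount of 5, limma-trend or an adjusted p limit of 0.05, at -2.10 by the median ratio and at -1.71 without Mul1(-/-) replicate 3, and lay between -1.71 and -1.28 with single libraries left out. With a replicate block, limma called 0 members as higher and 0 as lower, with 37 at an unadjusted p under 0.05, and 0 genes of the whole table. The share of all genes under that unadjusted limit was not counted. Samples with the same number correlated at 0.022, 0.35 and 0.054 for replicates 1, 2 and 3, as deviations from the group means, so the numbers were not taken as pairs. Herc had 0 genes and no median, and the planned count tests in edgeR and DESeq2 were not run. The number of samples, 3 per group, limits the precision of each value.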
